A study of Homo sapiens with 6 samples.

Results

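The genes described here are 10 that encode transcription factors of the epithelial-mesenchymal transition (EMT): SNAI1, SNAI2, SNAI3, ZEB1, ZEB2, TWIST1, TWIST2, PRRX1, FOXC1 and FOXC2. They were taken by name and family from 58051 genes counted. The rule uses no measured value, but earlier results of these data were known when the genes were picked. The data are RNA-seq gene counts from A172, a human cell line from a glioblastoma, the most malignant of the astrocytic brain tumours. Stable A172 lines were made with lentivirus carrying either the RNA-binding protein RBFOX1 (3 libraries) or green fluorescent protein (GFP, 3 libraries), each from a pLX317 plasmid. The comparison asks how RNA levels differ in glioblastoma cells that regain RBFOX1. Both groups went through the same viral transduction, so GFP cells carry a vector and an added protein as well. All libraries are from 1 cell line, and each group is a stable line that overexpresses its protein rather than one with the protein at its usual level. The study's methods call the 3 samples of a group biological replicates, but the labels name no separate clone or day, and no batch is given. The p-values below therefore measure the spread among these 6 libraries.

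In an EMT, cells lose the junctions that hold an epithelium together and take on the shape and motility of mesenchymal cells. SNAI and ZEB proteins are zinc finger repressors that bind E-box sequences in the promoters of junction genes such as CDH1 (E-cadherin). TWIST proteins are basic helix-loop-helix (bHLH) factors that work as dimers, PRRX1 is a paired-related homeobox protein, and FOXC1 and FOXC2 are forkhead proteins. Glioblastoma cells are not epithelial, and in these tumours the same factors are known mostly from the mesenchymal expression state and from invasion. ZEB1 and ZEB2 are also known for a mutual repression with the microRNAs of the miR-200 family, whose mature strands pair with the 3′ untranslated regions (UTRs) of both messages.

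RBFOX1 itself was counted 4, 0 and 1 times in the GFP libraries and 10276, 16467 and 21451 times in the RBFOX1 libraries, so the labels and the reads match. The counts on genes ran from 7433414 to 23249221 per library, and the common biological coefficient of variation was 0.0542. GFP replicate 1 differed most from its group. Its chi-square per degree of freedom was 8.9 against GFP replicate 2 and 9.07 against GFP replicate 3. Those replicates gave 1.66 against each other, and pairs of RBFOX1 libraries gave 1.98 to 3.01. This measure also grows with depth, and GFP replicate 1 was the deepest library. As a check of the cell type, NES, EGFR and OLIG2 were well expressed, with mean normalized counts of 3482, 2468 and 123 in GFP cells. GFAP, the defining astrocyte filament, had at most 4 counts in a library, and AQP4 and OLIG1 had 0 in every library. Of 6 glial and glioblastoma markers tested, 2 were higher (NES and SOX2) and 1 was lower (OLIG2), so 50% differed beside 46.6% of all genes tested. Of 12 markers of immune, endothelial and neuronal cells, 7 could be tested and 6 were higher in RBFOX1 cells (PTPRC, PECAM1, VWF, CDH5, SYP and NEFL). The share called was 85.7%, beside 46.6% of all genes tested, and 23.7% of all genes were called higher. VWF and CDH5 reached the minimum of 10 summed counts for a test only through the RBFOX1 libraries, so their calls are no support for a direction. The summed level of the 12 markers without NEFL was 39 to 49.2 normalized counts in GFP and 190.5 to 214 in RBFOX1 libraries, and with NEFL 3846 to 4168 and 17333 to 19308. Of the immune markers, AIF1 and CD3E had 0 counts in every library and CD68 had 1 to 4. PTPRC had 10 to 38 counts in GFP and 27 to 74 in RBFOX1 libraries. The summed levels moved with the groups, and their part in the results below was not tested. In bulk samples such as these, fewer cells that express a gene and less of its RNA per cell cannot be told apart.

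The sequence that RBFOX proteins bind, TGCATG, was searched on the sense strand in the canonical 3′ UTR of each of the 10 genes, because it shows where the overexpressed protein has its known motif in these messages. It was found in SNAI3, ZEB1, ZEB2, TWIST1 and TWIST2, with 2 copies in ZEB2 and 1 in each of the others. The sites are printed in 30-base windows from GRCh38, 5′ to 3′ on the gene's strand, with the motif in capitals.
SNAI3, chr16:88677902-88677931, minus strand: cacacgtctatgTGCATGtgcacacacact
ZEB1, chr10:31529645-31529674, plus strand: aaaaatataattTGCATGtttatggagctc
ZEB2, chr2:144388852-144388881, minus strand: aacttgaagtgaTGCATGtgtgaatttaag
ZEB2, chr2:144385449-144385478, minus strand: tgaatctcacatTGCATGttcatcaatcat
TWIST1, chr7:19115811-19115840, minus strand: ttatttttttcaTGCATGcattctcaagag
TWIST2, chr2:238910303-238910332, plus strand: cccccgagcctcTGCATGattgtttcaagt
Counted from the stop codon, the ZEB1 site lies at nucleotide 2392 of 2540, and the ZEB2 sites at 581 and 3984 of 5370. Among the 14008 protein-coding genes tested that have a canonical 3′ UTR, 5115 (36.5%) held at least 1 copy, and the median 3′ UTR was 1296 nucleotides long. A match is a description of the letters and not a measured binding site.

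The miR-200 family is shown because its members fall into a pair of groups by seed (bases 2 to 8, in capitals), and the ZEB messages hold matches to both. The mature sequences are from RefSeq.
hsa-miR-200b-3p: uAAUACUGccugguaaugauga
hsa-miR-200c-3p: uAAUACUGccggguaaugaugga
hsa-miR-429: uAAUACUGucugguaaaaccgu
hsa-miR-200a-3p: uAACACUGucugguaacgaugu
hsa-miR-141-3p: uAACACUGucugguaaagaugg
The 7-base match to the AAUACUG seed, CAGTATT, occurred 6 times in the 3′ UTR of ZEB1, 5 times in that of ZEB2 and once in that of SNAI2, and in none of the other 7 genes. It was present in 18.7% of all 3′ UTRs. The match to the AACACUG seed, CAGTGTT, occurred 3 times in ZEB1, 4 times in ZEB2 and once in FOXC1, and was present in 20.9% of all 3′ UTRs. The genes MIR200A, MIR200B, MIR200C, MIR141 and MIR429 and the host gene MIR200CHG had 0 counts in every library. MIR205HG, a host gene outside the miR-200 family, had 1 count in each GFP library and 7, 28 and 16 counts in the RBFOX1 libraries. It reached the minimum of 10 summed counts only through the RBFOX1 libraries. Mature microRNAs are too short for these libraries, so the counts do not measure them.

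Of the 10 EMT factors, 3 were higher in RBFOX1 than in GFP cells (SNAI1, ZEB1 and PRRX1), 1 was lower (TWIST2), and 6 did not pass the test. SNAI1 reached the minimum of 10 summed counts only through the RBFOX1 libraries, so its call is no support for a direction. With the filterByExpr filter of edgeR, SNAI1 was not tested, and 3 factors were called, 2 higher and 1 lower. All 10 had enough counts to be tested. The calls come from a quasi-likelihood fit in edgeR across the 20536 genes tested, with p-values adjusted over all of them by the Benjamini-Hochberg method and a threshold of 0.05. The share of EMT factors called, 40%, stands beside 46.6% of all genes tested, so the count of called factors is near the background. By direction, 23.7% of all genes were called higher and 22.9% lower. The median log2 fold change was 0.17 over the 10 factors and 0.0051 over all genes. In 5 of the 10 factors the RBFOX1 and GFP libraries did not overlap, beside 53.4% of all genes. Only SNAI1 was called with a change of at least 2-fold, so 1 factor was higher and 0 lower by that rule, which 8.23% and 4.48% of all genes met. That factor carries the limit of the filter given above.

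**Figure D1:**
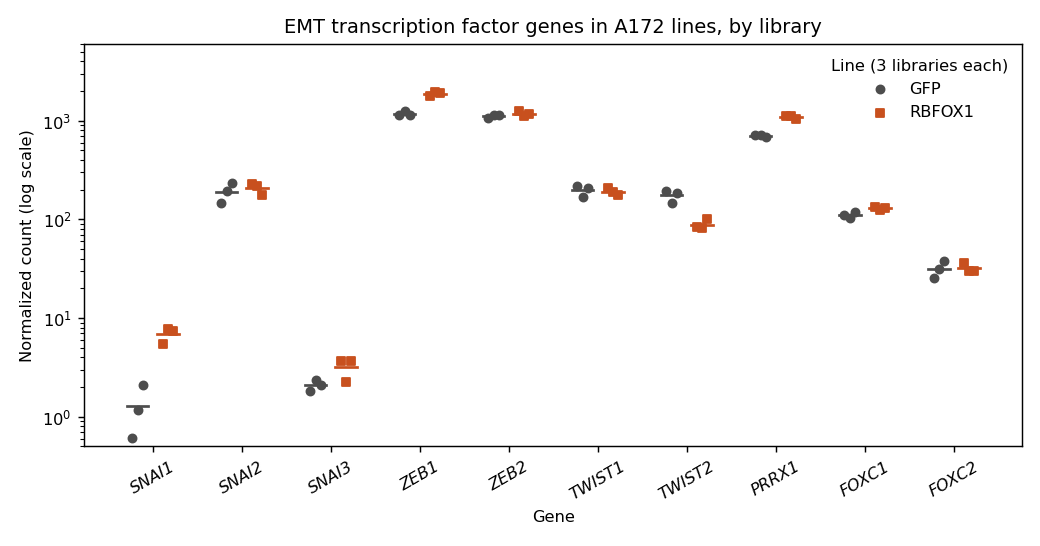
Normalized counts of the 10 EMT transcription factor genes (log scale) in each of the 3 GFP libraries (grey circles) and 3 RBFOX1 libraries (orange squares), with a line at each group's mean. All RBFOX1 libraries lie above all GFP libraries for SNAI1, ZEB1, PRRX1 and FOXC1 and below them for TWIST2, and the groups overlap for the other 5.

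ZEB1 (ENSG00000148516, chromosome 10, 31318495 to 31529814, plus strand) was the most abundant of the factors and rose 1.6-fold. ZEB1 is the zinc finger and homeobox repressor of CDH1 that has been studied most in glioblastoma. Its normalized counts, scaled to the mean library, were 1151, 1245 and 1136 in the GFP libraries and 1799, 1945 and 1903 in the RBFOX1 libraries. Every RBFOX1 library lay above every GFP library, and the means were 1177 ± 59.1 and 1882 ± 75 (SD, n = 3 each). In the fit, the log2 fold change was 0.68 ± 0.0551 (SE), with a 95% interval of 0.57 to 0.8 and an adjusted p of 2.72e-09 by edgeR.

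ZEB2 (ENSG00000169554, chromosome 2, 144364364 to 144521057, minus strand), the close relative of ZEB1, did not pass the test. Its normalized counts were 1064, 1146 and 1144 in GFP and 1244, 1116 and 1175 in RBFOX1 libraries. The lowest RBFOX1 library lay within the range of the GFP libraries. The log2 fold change was 0.075 ± 0.0586 (edgeR adjusted p = 0.323), and its 95% interval, -0.047 to 0.2, leaves out a rise of the size seen in ZEB1.

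SNAI1 (ENSG00000124216, chromosome 20, 49982980 to 49988886, plus strand), which encodes Snail, the first of these factors known as a repressor of CDH1, was near the limit of detection in both groups. GFP libraries held 1, 1 and 2 reads of it, and RBFOX1 libraries 3, 7 and 8. After scaling, all RBFOX1 values (5.44 to 7.77 normalized counts) exceeded those of GFP (0.607 to 2.11). The summed counts were 4 and 18, a ratio of 6.1 per effective library size, with an exact 95% interval of 2.01 to 24.8 that covers counting error only. The fitted log2 fold change was 2.48 ± 0.648 with an adjusted p of 0.00353 by edgeR. DESeq2 gave an adjusted p of 0.0559 for the same counts, so the call depended on the tool. No GFP library exceeded 3 counts, which is as much as an unseen gene could have, and a fitted fold at such counts depends on the prior count added.

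SNAI2 (ENSG00000019549, chromosome 8, 48917598 to 48921740, minus strand) encodes Slug, and it was the only well expressed gene of the SNAI family. Its normalized counts were 148, 192 and 232 in GFP and 229, 219 and 178 in RBFOX1 libraries, and the groups overlapped. Its log2 fold change was 0.14 ± 0.139 (95% interval -0.15 to 0.43, edgeR adjusted p = 0.435). Without GFP replicate 1, the deepest library, it was -0.049, so these libraries give no direction for SNAI2.

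SNAI3 (ENSG00000185669, chromosome 16, 88677688 to 88686507, minus strand), the least studied SNAI gene, was read 3, 2 and 2 times in GFP and 2, 2 and 4 times in RBFOX1 libraries. The ratio of the summed counts was 1.55 per effective library size, with an exact 95% interval of 0.491 to 5.02. A difference within that interval was not detectable at this depth. The long transcript SNAI3-AS1 covers the whole of SNAI3 on the opposite strand, and the counting was done by strand.

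TWIST2 (ENSG00000233608, chromosome 2, 238848032 to 238910534, plus strand) was the only factor that fell, by 1.97-fold. TWIST2, also called Dermo1, is known from the mesenchyme of the dermis and bone. Its normalized counts were 194, 148 and 183 in GFP and 83.4, 82.2 and 100.4 in RBFOX1 libraries. The highest RBFOX1 library lay well under the lowest GFP library, and the means were 175 ± 24 and 88.7 ± 10.2. On the log2 scale the change was -0.98 ± 0.13, with a 95% interval of -1.25 to -0.71 and an adjusted p of 2.6e-06 by edgeR.

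TWIST1 (ENSG00000122691, chromosome 7, 19020991 to 19117636, minus strand), needed for the migration of neural crest cells and mutated in a craniosynostosis syndrome, did not pass the test. Its normalized counts were 217, 169 and 209.6 in GFP and 210.4, 188 and 176 in RBFOX1 libraries. All RBFOX1 libraries lay within the range of the GFP libraries. The log2 fold change was -0.091 ± 0.108 (edgeR adjusted p = 0.538), and its 95% interval of -0.32 to 0.14 does not reach the fall of TWIST2.

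PRRX1 (ENSG00000116132, chromosome 1, 170662728 to 170739421, plus strand), a homeobox gene of limb and craniofacial mesenchyme, rose 1.55-fold. Its normalized counts were 714, 724 and 686 in GFP and 1128, 1115 and 1050.1 in RBFOX1 libraries. The groups were far apart against a spread of 19.8 and 41.7 (SD) around means of 708 and 1098. On the log2 scale the change was 0.63 ± 0.0586, with a 95% interval of 0.51 to 0.75 and an adjusted p of 2.19e-08 by edgeR. PRRX2, its only close relative, had 0 counts in every library.

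FOXC1 (ENSG00000054598, chromosome 6, 1609915 to 1613897, plus strand), a forkhead gene of eye and vessel development, had normalized counts of 112, 103 and 119 in GFP and 132, 124 and 129 in RBFOX1 libraries. All RBFOX1 libraries lay above all GFP libraries, yet the gene did not pass the test, with a log2 fold change of 0.2 ± 0.114 (95% interval -0.041 to 0.44, edgeR adjusted p = 0.172). FOXC2 (ENSG00000176692, chromosome 16, 86566829 to 86569728, plus strand), a gene of lymphatic vessels and their valves, was lower in abundance with counts of 42, 27 and 36 (GFP) and 20, 27 and 33 (RBFOX1). Its log2 fold change was 0.036 ± 0.221 (95% interval -0.43 to 0.5, edgeR adjusted p = 0.915). It was -0.14 without GFP replicate 1 and -0.021 without RBFOX1 replicate 1, so no direction can be given.

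**Figure D2:**
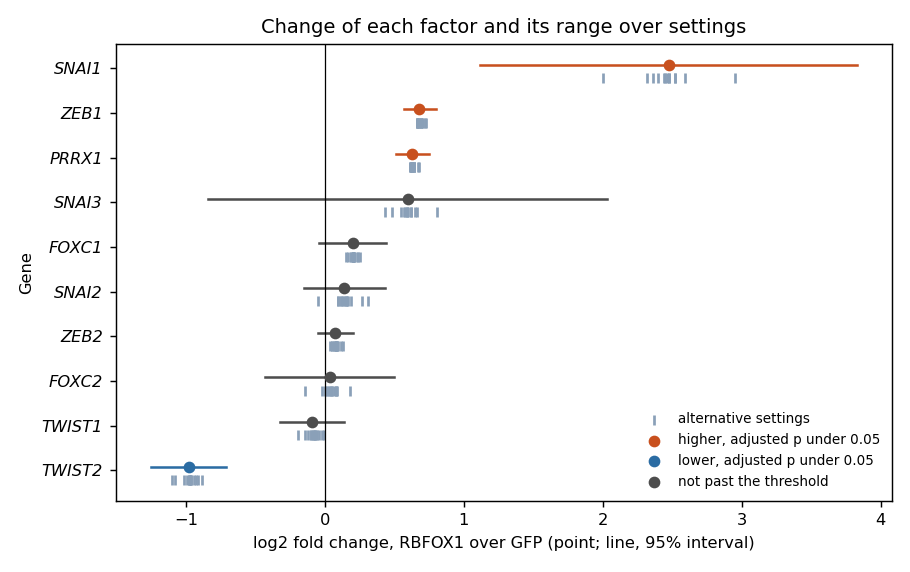
The log2 fold change of each factor, RBFOX1 over GFP (point), with its 95% interval (line), ordered by size, and the value under each alternative setting below it (short marks). The intervals of SNAI1, ZEB1 and PRRX1 lie above 0 and that of TWIST2 below it, and the marks of SNAI2 and FOXC2 fall on both sides of 0.

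Of the 4 called factors, SNAI1, ZEB1 and TWIST2 each have a counted relative that did not pass the test, and PRRX1 has none. The ratio of related genes within a library does not depend on how libraries are scaled. On the log2 scale, ZEB2 over ZEB1 counts gave -0.11, -0.12 and 0.011 in GFP and -0.53, -0.8 and -0.7 in RBFOX1 libraries, a difference of -0.6. In GFP cells the reads of ZEB1 and ZEB2 were thus near equal in number, and in every RBFOX1 library ZEB1 had more. TWIST2 over TWIST1 gave -0.16, -0.19 and -0.19 in GFP and -1.33, -1.19 and -0.81 in RBFOX1 libraries, a difference of -0.92. SNAI2 over SNAI1 gave 6.46 to 7.34 in GFP and 4.52 to 5.18 in RBFOX1 libraries, a difference of -2.05 that rests on the few SNAI1 counts. The groups did not overlap for these 3 pairs, and the exact two-sided permutation test gave p = 0.1 for each, the smallest that 3 against 3 libraries allow (0.133 adjusted over 4 pairs). The test could therefore not pass the threshold. FOXC2 over FOXC1 overlapped between the groups, with a difference of -0.17 and an exact permutation p = 0.4 (also 0.4 adjusted over the 4 pairs).

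**Figure D3:**
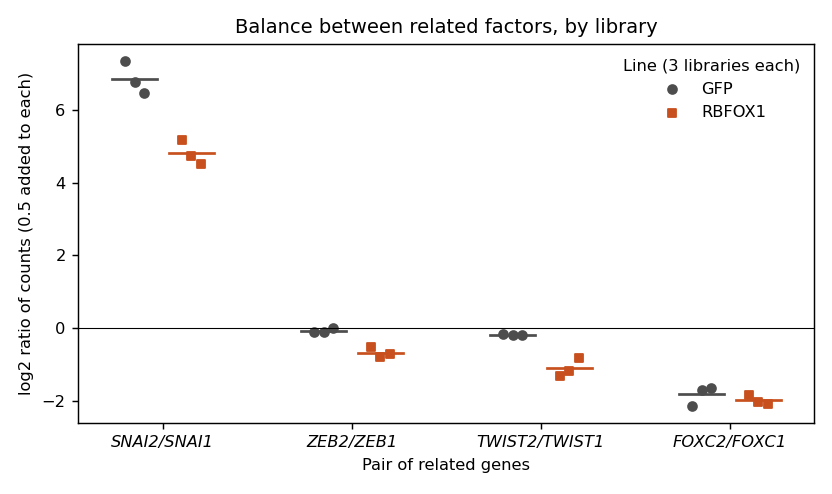
The log2 ratio of the counts of related genes (0.5 added to each count) in each of the 3 GFP libraries (grey circles) and 3 RBFOX1 libraries (orange squares), with a line at each group's mean. For SNAI2/SNAI1, ZEB2/ZEB1 and TWIST2/TWIST1 every RBFOX1 library lies below every GFP library, and for FOXC2/FOXC1 the groups overlap.

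Levels of different genes were compared as RPKM, counts scaled by the length of the canonical transcript and the effective library size. In GFP cells the order of mean levels was ZEB1 (14.3 ± 0.717), PRRX1 (12.6 ± 0.351), TWIST2 (9.41 ± 1.29), TWIST1 (8.78 ± 1.14), ZEB2 (8.69 ± 0.365), SNAI2 (6.29 ± 1.39), FOXC1 (2.01 ± 0.148), FOXC2 (0.786 ± 0.154), SNAI3 (0.0864 ± 0.0107) and SNAI1 (0.0547 ± 0.032). The ranges of TWIST2, TWIST1 and ZEB2 overlapped from each to the next, as did those of SNAI3 and SNAI1, so their order is not resolved. In RBFOX1 cells ZEB1 (22.8 ± 0.91) and PRRX1 (19.5 ± 0.74) stood further above ZEB2 (9.16 ± 0.5) and TWIST1 (8.46 ± 0.769), which overlapped. SNAI2 followed at 6.89 ± 0.884, and TWIST2, at 4.76 ± 0.548, came after it without overlap. FOXC1 was at 2.32 ± 0.073, FOXC2 at 0.798 ± 0.0892, SNAI1 at 0.289 ± 0.0521 and SNAI3 at 0.131 ± 0.0339. ZEB1 and PRRX1 together made up 40 to 45.5% of the summed level of the 10 factors in GFP libraries and 54.7 to 57.5% in RBFOX1 libraries. The share of TWIST2 was 13 to 16.7% in GFP and 5.85 to 7.34% in RBFOX1 libraries, so the make-up of the set by level differed most for these 3 genes. With the length of all annotated exons in place of the canonical transcript, ZEB1 stayed the highest in both groups (9.8 and 15.7), but the place of PRRX1 changed. In GFP cells it came (6.18 ± 0.173) after TWIST1 (7.17 ± 0.93) and before TWIST2 (5.92 ± 0.811), with overlapping ranges, so its second place there depends on the length used. ZEB2 came after SNAI2 in both groups, since its exons sum to 26151 bases against 9265 in its canonical transcript.

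The calls are given here by the RBFOX motif in the 3′ UTR, as a description of 10 genes with no test. Of the 5 with TGCATG, ZEB1 was higher, TWIST2 was lower, and SNAI3, ZEB2 and TWIST1 did not pass the test. Of the 5 without it, SNAI1 and PRRX1 were higher and SNAI2, FOXC1 and FOXC2 did not pass. With so few called genes, nothing is read from this about the motif.

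Of 6 antisense or divergent transcripts beside the factors, 4 had enough counts to test, and 0 of the 4 passed it in edgeR, DESeq2 or limma-voom (0 also at an unadjusted p under 0.05 in edgeR). Over all genes tested, 46.6% were called in edgeR. ZEB1-AS1, which starts at the ZEB1 promoter and runs the other way, had normalized counts of 106, 100.4 and 101 in GFP and 107, 105 and 78.5 in RBFOX1 libraries. Its log2 fold change was -0.11 ± 0.136 (edgeR adjusted p = 0.537) beside the rise of ZEB1. SNAI3-AS1 had a log2 fold change of -0.23 ± 0.12 (edgeR adjusted p = 0.122), with all RBFOX1 libraries (95.9 to 116 normalized counts) under the GFP libraries (119.6 to 133). FOXC2-AS1 had 5 to 10 counts in GFP and 2 to 4 in RBFOX1 libraries, and FENDRR, from the FOXF1 and FOXC2 region, had 6 to 9 and 3 to 7. ZEB2-AS1 had 5 counts in all GFP libraries together and 1 in RBFOX1 libraries, and FOXCUT had none.

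Of 15 relatives and cluster neighbours of the factors, 7 were tested, and 4 of them were lower and 0 higher in edgeR (0 higher also at an unadjusted p under 0.05), with a median log2 fold change of -0.37. The 57.1% called stands beside 46.6% of all genes, 22.9% of which were lower. FOXF1, a forkhead gene next to FOXC2 on chromosome 16, fell from 366, 379.5 and 353 normalized counts in GFP to 107, 76.6 and 98.6 in RBFOX1 libraries (log2 fold change -1.98 ± 0.107, edgeR adjusted p = 6.11e-12). FOXL1, on the far side of FOXC2, fell from 92.9 to 105 normalized counts to 74.9 to 78 (edgeR adjusted p = 0.0241). ZFHX3, a large zinc finger and homeobox gene, fell by 0.56 on the log2 scale (edgeR adjusted p = 0.000236), and HAND2, at 15 counts in GFP and 2 in RBFOX1 cells, was the fourth. HAND2 passed the filter of summed counts only through the GFP libraries. Under DESeq2, or without RBFOX1 replicate 2 or 3, 2 of the 7 were called.

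TWIST proteins bind DNA with E proteins, and ID proteins take those partners away because they dimerize without binding DNA. Of the 7 genes of this group, 4 were higher and 2 lower, so 85.7% were called beside 46.6% of all genes. The median log2 fold change was 1.03, and 3 of the 4 higher genes were ID genes. ID2 had normalized counts of 34.6, 29.2 and 30.6 in GFP and 198, 212 and 189 in RBFOX1 libraries, a log2 fold change of 2.63 ± 0.135 (edgeR adjusted p = 2.46e-12). ID3 had 82, 75.9 and 87.4 against 167, 187 and 194 (log2 fold change 1.17 ± 0.114, edgeR adjusted p = 4.5e-08). ID4 rose from 2 to 6 counts in a GFP library to 12 to 22 in an RBFOX1 library, whereas ID1 fell by 0.24 on the log2 scale (edgeR adjusted p = 0.0113). Among the E proteins, TCF4 rose by 1.03 on the log2 scale, TCF12 fell by 0.37, and TCF3 did not pass (edgeR adjusted p = 0.0858).

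SNAI and ZEB proteins repress by way of corepressors and chromatin enzymes. Of 25 genes of corepressors and other chromatin partners, 16 were higher and 2 lower, so 72% were called beside 46.6% of all genes. The median log2 fold change was 0.29. Not all of the 25 are corepressors, and the acetyltransferases EP300 and KAT2B are among the 16 higher genes. AJUBA, a LIM protein that binds the SNAG domain of Snail, had normalized counts of 636, 650.5 and 642 in GFP and 1658, 1654 and 1835 in RBFOX1 libraries (log2 fold change 1.42 ± 0.059, edgeR adjusted p = 1.02e-13). RCOR1, the scaffold of the CoREST complex, had 258, 259 and 279 against 620.3, 633 and 594 (log2 fold change 1.21 ± 0.0729, edgeR adjusted p = 2.91e-11). The 2 genes that were lower, CTBP2 and HDAC1, moved by -0.21 and -0.33. Of the 16 higher genes, 4 reached 2-fold (AJUBA, RCOR1, EZH2 and LOXL3).

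The abundance of Snail and its relatives is known to be set largely at the protein level, by kinases and ubiquitin ligases. The list of 21 genes looked at here holds kinases, ubiquitin ligases and deubiquitinases (PSMD14 among them), and also other proteins such as COPS2 and CTDSP1. Of the 21, 4 were higher (FBXO11, FBXO45, COPS2 and PAK1) and 8 lower (PSMD14 and CTDSP1 among them). None changed by 2-fold, and the median log2 fold change was -0.017. The share called was 57.1%, beside 46.6% of all genes. MDM2, a ubiquitin ligase best known for p53 and also acting on SNAI proteins, fell from 4315, 4462 and 4591 to 2605, 2548 and 2513 normalized counts (log2 fold change -0.8 ± 0.0474, edgeR adjusted p = 2.3e-11). FBXL14, an F-box protein that marks SNAI and TWIST proteins for turnover, fell by 0.58 on the log2 scale (± 0.129, edgeR adjusted p = 0.000971). Protein levels were not measured.

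TGF-beta is the ligand best known to raise these factors. Of 24 ligand, receptor and SMAD pathway genes, 4 were higher and 13 lower, so 70.8% were called beside 46.6% of all genes, and the median log2 fold change was -0.28. All 7 receptor genes of the list were lower, while 2 of its 3 ligand genes were higher, beside 22.9% and 23.7% of all genes. The 7 are TGFBR1, TGFBR2 and TGFBR3 and the related receptors ACVR1, ACVRL1, BMPR1A and BMPR2. BMPR1A and BMPR2 fell least, by 0.3 and 0.27 on the log2 scale, and BMPR2 overlapped between the groups. TGFB3 had normalized counts of 21.2, 21 and 16.9 in GFP and 109, 119.9 and 111 in RBFOX1 libraries (log2 fold change 2.5 ± 0.167, edgeR adjusted p = 1.52e-10), and TGFB2 rose by 1.5 on the log2 scale, while TGFB1 did not pass the test (edgeR adjusted p = 0.132). TGFBR2, the receptor that binds the ligand, fell from 3448, 3675 and 3683 to 1246, 1315 and 1087 normalized counts (log2 fold change -1.57 ± 0.0625, edgeR adjusted p = 5.42e-14). The other 2 genes that rose were SKI and SMAD6.

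Of 18 other transcription factors known from EMT, 14 were tested, 4 were higher (SOX4, FOXM1, ETS1 and LEF1), 3 were lower (HMGA2, SOX9 and TBX3) and the median log2 fold change was 0.16. The 50% called is near the 46.6% of all genes. HMGA2, a DNA-bending protein known to raise SNAI1 and TWIST1, had normalized counts of 557, 566 and 617 in GFP and 21.8, 18.9 and 17.3 in RBFOX1 libraries, a fall of 30.5-fold (log2 fold change -4.93 ± 0.127, edgeR adjusted p = 6.78e-17). SOX4, an SRY-related factor downstream of TGF-beta, had 178, 193 and 163 against 764, 718 and 772 (log2 fold change 2.08 ± 0.0785, edgeR adjusted p = 2.54e-14). Both moved further than any of the 10 factors with more than 10 counts in a library.

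**Figure D4:**
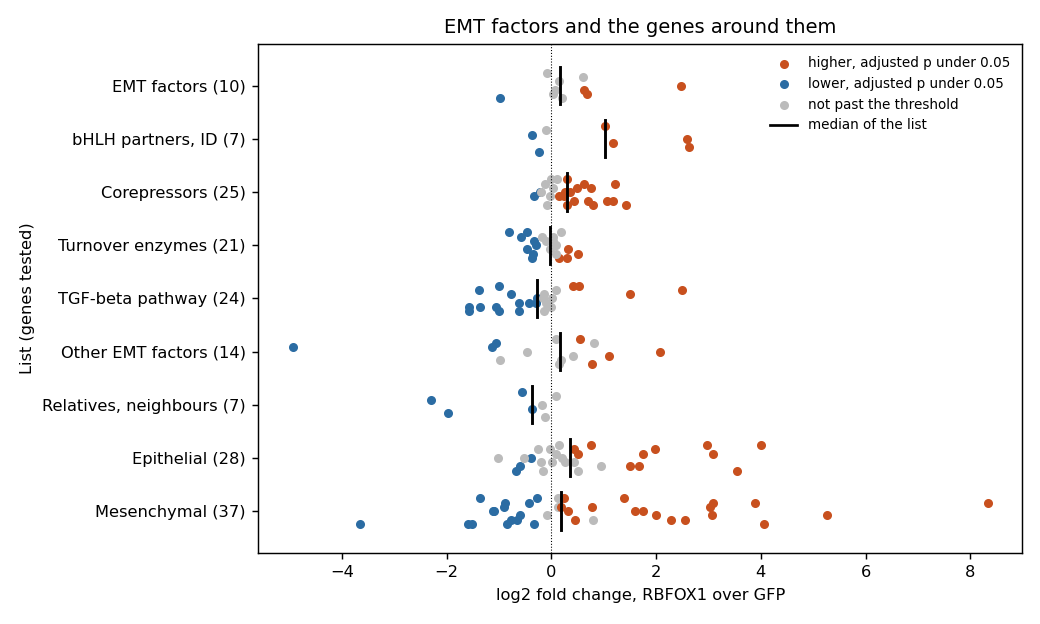
The log2 fold change, RBFOX1 over GFP, of each tested gene (points, by call) in the 10 EMT factors and in 8 lists of genes around them, with the number of genes tested in brackets and a black line at each median. The EMT factors other than SNAI1 lie within 1 of 0 on the log2 scale, and the mesenchymal list reaches from -3.66 to 8.33.

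The genes by which an EMT is usually read did not move one way. Of 28 epithelial genes tested of 34, 11 were higher and 3 lower, so 50% were called beside 46.6% of all genes, a share near the background, with a median log2 fold change of 0.35. The lower genes were PATJ, CLDN4 and ESRP1. The keratins KRT18 and KRT8 rose by 1.98 and 1.67 on the log2 scale (SE 0.0478 and 0.0471, edgeR adjusted p = 3.09e-17 and 3.04e-16), from 6228 to 6506 and 2497 to 2551 normalized counts to 24544 to 25510.1 and 7776 to 8141. Both keratins have many processed copies in the genome and their annotated spans overlap on chromosome 12, so part of their counts may be misplaced. PKP2, a desmosome plaque protein, had normalized counts of 358, 346 and 381 in GFP and 1057, 974 and 1067 in RBFOX1 libraries (log2 fold change 1.51 ± 0.0677, edgeR adjusted p = 3.23e-13). PATJ, a scaffold of the Crumbs polarity complex, fell from 691, 725 and 662 to 417, 429 and 447 (log2 fold change -0.68 ± 0.068, edgeR adjusted p = 6.17e-08). CDH1 was hardly expressed, with counts of 0, 1 and 0 (GFP) and 3, 4 and 5 (RBFOX1), a ratio of 16.3 per effective library size with an exact 95% counting interval of 2.41 to 695. It is among the 11 genes called higher (edgeR adjusted p = 0.00438), but it passed the filter of 10 summed counts only through the RBFOX1 libraries, so the call is no support for a direction. Its fitted log2 fold change of 3.54 became 2.8 without GFP replicate 1 and 5.31 without GFP replicate 2, and it could be tested in 11 of 14 alternatives. CRB3, ELF3, MARVELD3 and TJP3 are also among the 11 genes called higher, and they too passed the filter only through the RBFOX1 libraries. Their calls are likewise no support for a direction. With the filterByExpr filter of edgeR, 10 epithelial genes were called in place of 14.

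The E-box that SNAI and ZEB proteins bind, CAGGTG or its reverse complement CACCTG, was looked for in RefSeq promoters of GRCh38, from 250 bases before to 50 after each start. It was present in 20.6% of 27305 promoters. Promoters were found for 5 of the 10 factors and for 17 of the 34 epithelial genes, fewer than 80% of either, so a share over these lists is void and none is read. Of the 10 factors, ZEB1 was found with a box. Among the 9 epithelial genes found with one, CRB3, TJP1, DSP and ELF3 were higher, PATJ was lower, OCLN and MUC1 did not pass the test, and CLDN3 and RAB25 had too few counts to test. CRB3 and ELF3 passed the filter of summed counts only through the RBFOX1 libraries. The windows of ZEB1, of PATJ and of TJP1 and DSP, the most abundant genes called in each direction, are shown 5′ to 3′ on the gene's strand with the box in capitals.
ZEB1, chr10:31318348-31318377, plus strand: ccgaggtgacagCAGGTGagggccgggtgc
PATJ, chr1:61742297-61742326, plus strand: ccggtaggaattCACCTGcacgtaaacagc
PATJ, chr1:61742438-61742467, plus strand: gggagggcctgcCAGGTGaggcgcggtcac
PATJ, chr1:61742477-61742506, plus strand: ctcacttccgccCAGGTGaggcagggccga
TJP1, chr15:29969120-29969149, minus strand: gcggccggcgcgCAGGTGgcccggcctcgc
DSP, chr6:7541481-7541510, plus strand: gggcggcgggcgCAGGTGgggaggggcggc
DSP, chr6:7541574-7541603, plus strand: gaagaaaccggcCAGGTGtggcctaggcgc

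Of 37 mesenchymal genes tested of 38, 18 were higher and 15 lower, so 89.2% were called beside 46.6% of all genes, and the median log2 fold change was 0.19. The highest rises were in matrix and contractile genes. POSTN, which encodes periostin, had counts of 5, 0 and 3 (GFP) and 434, 741 and 813 (RBFOX1) (log2 fold change 8.33 ± 0.184, edgeR adjusted p = 8.83e-18). POSTN and LUM, both among the 18 higher genes, passed the filter of summed counts only through the RBFOX1 libraries. TAGLN, an actin-binding protein of smooth muscle, rose from 64.3 to 79.5 normalized counts to 2752 to 2948 (log2 fold change 5.27 ± 0.0773, edgeR adjusted p = 2.05e-20). COL1A1, a chain of type I collagen, and CDH11, a mesenchymal cadherin, rose by 4.06 and 3.89 on the log2 scale. The 3 classic markers fell, with VIM (vimentin) at -0.65 ± 0.048, FN1 (fibronectin) at -0.34 ± 0.0558 and CDH2 (N-cadherin) at -0.27 ± 0.0456 (edgeR adjusted p = 6.57e-10, 3.71e-05 and 5.97e-05). VIM had normalized counts of 62887, 57301 and 58577 in GFP and 37326, 38051 and 38339 in RBFOX1 libraries. The epithelial and the mesenchymal lists thus each held genes that moved in both directions, beside ZEB1 and PRRX1 that rose and TWIST2 that fell.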

How the data were processed

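Libraries (3 GFP, 3 RBFOX1) were made from total RNA of the A172 lines after rRNA depletion, with a stranded kit and paired-end reads. The authors used HISAT2 for alignment to GRCh38 and HTSeq-count for counting by strand on Ensembl genes, in a mode that keeps only reads lying wholly within 1 gene, and deposited raw counts per gene. Versions of HISAT2 and HTSeq are not given in the sources used here. Pairs counted on genes made up 52 to 61.9%, and the classes that name no gene (16.8 to 27% of pairs for low mapping quality alone) were left out. A deposited table of the authors' own DESeq2 comparison was not used.

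Counts were tested with edgeR 4.0.16 (R 4.3.3, TMM, quasi-likelihood, two-sided, condition as the only term) for genes with at least 10 summed counts, with Benjamini-Hochberg adjustment over all of them. Alternatives were DESeq2 1.42.0, limma-voom 3.58.1, other scalings and filters, a fold minimum, a replicate block and the omission of each library. In a simulation on these libraries edgeR recovered 200 of 200 changed genes with 6 false calls among 20109 genes. The changed genes were well counted, their changes were 2-fold or more, and 1 dispersion was used for all genes. The simulation therefore does not bear on smaller changes, on genes with few counts, or on data with 46.6% of genes called. Normalized counts are scaled to the mean effective library. Intervals cover counting error only where they are exact.

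Symbols, positions and 3′ UTRs came from GENCODE release 44, which matched 98.1% of identifiers. The members and lists were chosen with earlier results of these data known. Named were all members, CDH1, CDH2, VIM, FN1, RBFOX1 and, per list, the 2 called genes (4 for epithelial and mesenchymal genes) of largest change with a mean of at least 50 normalized counts and groups that do not overlap. Other genes were named after their values were seen, to spell out a count or a family.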

Additional observations from a re-analysis of the deposited data

How the results depend on the processing

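Over 14 alternatives that keep the call rule, ZEB1 (log2 fold change 0.66 to 0.73), PRRX1 (0.61 to 0.68) and TWIST2 (-1.1 to -0.88) passed the threshold in all, and ZEB2, TWIST1, SNAI2, FOXC1 and FOXC2 in none. SNAI1 and SNAI3 could be tested in 13 of them. SNAI3 passed in none, and SNAI1 passed in 12, but not under DESeq2 (log2 fold change 2.52, adjusted p = 0.0559). DESeq2 called 2 relatives of the factors, in place of 4. With a minimum absolute log2 fold change of 1 added, 2611 genes were called in all and 1 EMT factor, SNAI1 (1 higher, 0 lower), since ZEB1 (0.68), PRRX1 (0.63) and TWIST2 (-0.98) lie under it, and the lists kept 2 relatives, 4 corepressors, 0 turnover genes, 8 TGF-beta genes, 8 epithelial genes, 19 mesenchymal genes and 1 glial marker. Leaving out 1 library at a time gave 8326 to 9307 genes called, 4 EMT factors in each case and 2 to 4 relatives. The direction turned for SNAI2 (range -0.049 to 0.31) and FOXC2 (-0.14 to 0.18, with -0.021 without RBFOX1 replicate 1), for FENDRR (-0.31 to 0.17, with 0.017 without GFP replicate 2) and for ZEB1-AS1 (-0.2 to 0.05, the upper value without RBFOX1 replicate 3), none of which passed the test in any setting, and the cause was not tested. With the replicate number as a block, 4588 genes were higher and 4458 lower, and SNAI1 kept its call (2.32, adjusted p = 0.0152). Same-numbered libraries did not deviate together (correlations -0.0326, 0.0156 and -0.000551), so there is no sign that the numbers pair the samples. With 3 libraries in a group, such correlations cannot exclude a pairing. Depth limits SNAI1, SNAI3 and CDH1, where 3 counts equal 1.82 to 5.44 normalized counts.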
